A study of Mus musculus with 9 samples.

Results

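The genes described here are 34 mouse genes of the integrated stress response and of amino acid supply. They were chosen by name: the transcription factor Atf4, its stress partners and targets, the eIF2 kinases, and genes of amino acid transport and of serine, proline and related amino acid synthesis. All 34 matched a row among the 27179 entries of the count tables, and 33 had enough reads to be tested among 12004 genes. The remaining gene, Vldlr, which encodes a lipoprotein receptor, had 1 read in all 9 libraries together, in washed clone 4.

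Cells that run short of amino acids, or whose endoplasmic reticulum fills with unfolded protein, phosphorylate the initiation factor eIF2 through kinases such as PERK (Eif2ak3) and GCN2 (Eif2ak4). General translation then slows while translation of Atf4 mRNA increases, so the protein can change without a change in its transcript. ATF4 binds composite C/EBP-ATF elements with partners of the same family and activates genes for amino acid uptake, for amino acid synthesis and for the stress response itself, and leukaemia cells are known to draw on this programme when amino acids are limiting.

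RNA was sequenced from AML246, a mouse acute myeloid leukaemia line on the C57BL/6 background that is p53-/- and carries shPU.1, a hairpin directed at the transcription factor PU.1. Cells of every group were cultured with IL3, sorted on GFP and came from clones 1, 2 and 4, each expanded from a single cell. Each clone gave 1 untreated GFPhigh library, 1 GFPoff library after 14 days of doxycycline (Dox), and 1 GFPhigh library after 14 days of Dox, a wash and 14 days without Dox. All replicates are clones of 1 line, so the tests measure the spread between these clones and not between leukaemias. Dox, the GFP gate and the hairpin changed together and cannot be told apart, and no library of Dox-treated cells lacking the hairpin was analysed here.

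Spi1, the gene of PU.1, stood at 48.1, 46.6 and 23.7 CPM (reads of a gene relative to the library's reads, scaled by TMM) in untreated clones 1, 2 and 4, at 197, 191 and 156 CPM under Dox, and at 52.0, 40.6 and 23.9 CPM after the wash. Every Dox library was above every other. The libraries held between 7408118 and 9803258 counts. A single entry without a symbol took 22.0% of the untreated library of clone 1 and 0.153% to 1.64% of the rest, and that library's TMM factor was 0.736 against 0.916 to 1.18. Washed clone 1 stood apart in another way: it had 1720 CPM of the neutrophil granule gene Mpo, against 50.0 to 82.7 CPM in the other untreated and washed libraries. Calls of members in the Dox comparisons, in the fit without a clone term, are also given without that library. The comparison of clones 1 and 2 as a pair is not. Of the marker lists for other cells, all 4 B cell and all 4 fibroblast genes were below 1 CPM in every library, while Epx, of the 4 eosinophil genes, fell from between 7434 and 10912 CPM untreated to between 2654 and 4784 CPM under Dox and Siglecf, another of them, rose from between 0.378 and 1.28 to between 15.2 and 48.9 CPM. Of the T and NK cell markers, Cd3g was the only one above 1 CPM (83.1 to 211 CPM in the untreated libraries and washed clones 2 and 4, and 8.38 to 38.4 CPM in the rest), and Itga2b, of the megakaryocyte list, stood at 457 to 666 CPM under Dox against 79.8 to 244 CPM elsewhere. The 4 mast cell genes summed to 1632, 1615 and 1306 CPM in untreated clones 1, 2 and 4, and to 149, 1086 and 506 CPM under Dox. Washed, the sums were 455, 1637 and 1384 CPM. Of these genes, 2 were below 1 CPM in every library, among them Fcer1a at 0 throughout. The mean log2 CPM of the 2 tested genes was 5.54 in untreated and 5.65 in washed clone 1. While the sum fell there, these 2 thus moved in opposite directions. The 4 epithelial genes, mostly Epcam, summed to between 4.95 and 10.8 CPM untreated, 19.4 and 88.6 CPM under Dox, and 4.05 and 7.84 CPM washed. The part of these markers' cells, if any, in the members' values was not tested. In such bulk libraries, fewer cells of a type and less RNA per cell cannot be told apart.

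Promoters are shown for the 7 members that hold the composite element within the printed stretch. Among them, 2 rose and 2 fell under Dox without a clone term, against 6.57% and 4.35% of all genes. Asns fell with the clone as a block, against 11.7% of all genes, and did not pass without it in the fit of all 9 libraries. Nupr1 and Got1 passed in neither fit. Each runs 5′ to 3′ from 130 bases before to 10 bases after the annotated start, on the minus strand of GRCm38.p6, from RefSeq. Capitals mark TGATGNAA or its reverse complement. Slc7a11 is at chr3:50443604-50443743, Atf3 at chr1:191183324-191183463, Slc1a4 at chr11:20332704-20332843, Pycr1 at chr11:120643739-120643878, Asns at chr6:7693200-7693339, Nupr1 at chr7:126625461-126625600 and Got1 at chr19:43524596-43524735.
Slc7a11: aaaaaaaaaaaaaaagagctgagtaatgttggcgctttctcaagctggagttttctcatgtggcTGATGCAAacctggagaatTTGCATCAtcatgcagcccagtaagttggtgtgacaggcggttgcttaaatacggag
Atf3: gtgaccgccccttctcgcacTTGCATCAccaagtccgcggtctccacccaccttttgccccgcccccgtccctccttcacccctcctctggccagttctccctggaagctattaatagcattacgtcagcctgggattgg
Slc1a4: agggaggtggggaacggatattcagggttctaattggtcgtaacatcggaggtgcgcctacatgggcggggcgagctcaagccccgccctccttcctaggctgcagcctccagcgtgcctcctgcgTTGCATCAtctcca
Pycr1: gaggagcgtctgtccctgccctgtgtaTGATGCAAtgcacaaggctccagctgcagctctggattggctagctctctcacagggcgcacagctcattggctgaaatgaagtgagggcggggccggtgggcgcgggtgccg
Asns: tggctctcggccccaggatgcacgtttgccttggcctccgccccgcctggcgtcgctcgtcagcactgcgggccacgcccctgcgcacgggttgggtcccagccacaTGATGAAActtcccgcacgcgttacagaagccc
Nupr1: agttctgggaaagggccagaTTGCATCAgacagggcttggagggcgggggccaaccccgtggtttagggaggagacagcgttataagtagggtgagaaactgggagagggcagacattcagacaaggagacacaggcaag
Got1: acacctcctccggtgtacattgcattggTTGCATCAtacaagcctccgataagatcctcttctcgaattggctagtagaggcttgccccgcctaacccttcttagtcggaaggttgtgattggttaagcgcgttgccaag

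In Slc7a11 the stretch holds 2 such matches in opposite orientations, and in Slc1a4 the match spans the start itself. Over the full window of 250 bases before to 50 after the start, both strands, TGATGNAA was found in 10 of the 29 members with a promoter entry (34.5%), against 1219 of 27025 genes (4.51%). The others, with matches outside the printed stretch, were Trib3, Chac1 and Vldlr. The cyclic AMP response element TGACGTCA lay in 1 of 29 members, Ppp1r15a, against 2.03% of genes. TGACNNNGC, the core of the antioxidant response element, lay in 8 of 29 (27.6%) against 14% of genes. GAGGAAGT, a PU.1-type sequence, lay in 0 of 29 against 3.69%. No match of 1 motif overlapped a match of another, and a match describes letters only.

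Under Dox, 8 of the 33 tested members fell against untreated cells and 2 rose, at an adjusted p below 0.05 in edgeR's quasi-likelihood test over all genes. Among all 12004 genes, 4.35% fell and 6.57% rose, 10.9% in all. Rises made up 60.2% of these calls, and 75.6% when libraries were scaled by size alone, which moved the median of all genes to 0.23 on the log2 scale. The genes that fell were Cth, Slc1a4, Gpt2, Pycr1, Aldh18a1, Atf5, Trib3 and Eif4ebp1, and those that rose were Atf3 and Slc7a11. The median log2 fold change was -0.69 over the members and 0.00 over all genes, and within clones 1, 2 and 4 the members' medians were -0.93, -0.78 and -0.40. With the clone as a block, which compares each clone with itself, 15 members fell and 3 rose, against 11.7% and 13% of all genes (24.8% in either direction). The 7 additional falls were Ddit3, Sesn2, Stc2, Slc1a5, Psat1, Phgdh and Asns, and the additional rise was Eif2ak3.

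Without clone 1, 7 of the 10 calls remained, those of Cth, Slc1a4, Gpt2, Pycr1, Aldh18a1, Atf5 and Slc7a11. Asns fell as well in that fit (adjusted p = 0.0423). Without clone 2 only the call of Atf3 remained, and without clone 4 none did, while calls over all genes went from 1311 to 967, 159 and 0. With the clone block, 17, 4 and 10 members fell without clones 1, 2 and 4, against 16.2%, 1.98% and 1.17% of all genes. In the same fits 3, 1 and 1 members rose, against 17.7%, 3.18% and 1.81%. Without the untreated library of clone 1 alone, 5 of the 10 calls remained, while calls over all genes went from 1311 to 347. Without the washed library of clone 1 all 10 remained under Dox and Ddit3, Stc2, Psat1 and Phgdh fell as well, among 2258 genes called. For washed against Dox libraries, Trib3, Ddit3 and Stc2 then rose, Slc7a11 and Eif2ak3 fell, and Eif4ebp1 no longer passed. That comparison called 1814 genes. The 20 members that passed with or without the block, Atf4 among them, kept their direction in each of these fits.

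**Figure D1:**
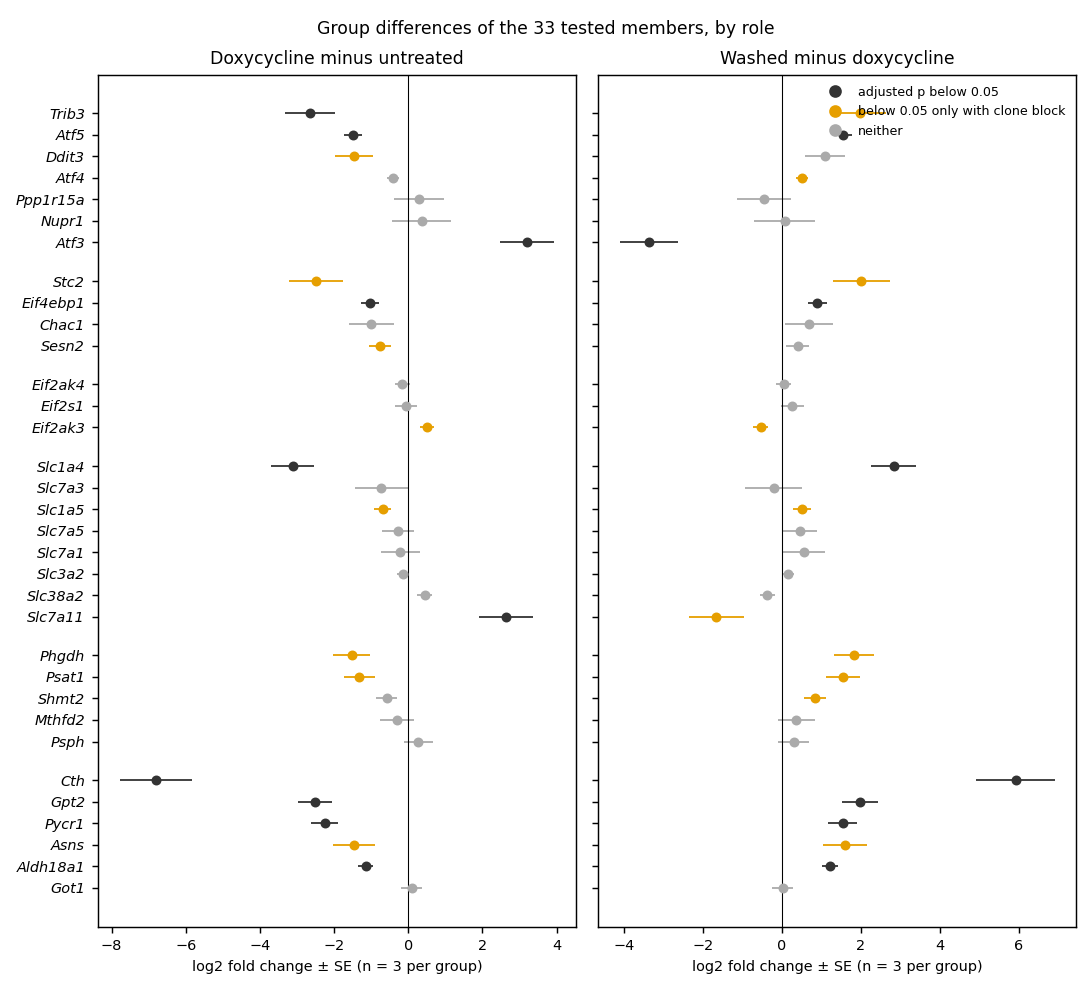
Log2 fold change with its SE (bars) for each of the 33 tested members, grouped by role, for Dox against untreated and for washed against Dox. Dark points have an adjusted p below 0.05 in the fit without a clone block, orange points only with the block, grey points in neither; the Cth point rests on 1 read under Dox. The 6 genes of other amino acid synthesis lie mostly left of 0 under Dox (median -1.85) and right of 0 after the wash.

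Atf4 itself had 280, 322 and 283 CPM in untreated clones 1, 2 and 4, 232, 207 and 222 CPM under Dox, and 330, 334 and 273 CPM after the wash. All 3 Dox libraries lay below all the others. The log2 fold change was -0.42 ± 0.16 (SE) under Dox (adjusted p = 0.127) and 0.50 ± 0.16 after the wash (adjusted p = 0.0837), which reached 0.0424 with the clone block. DESeq2 called it in both comparisons (adjusted p = 0.0382 and 0.00997), and under Dox so did the block without clone 1 (0.0228) and without washed clone 1 (0.0295). Per kilobase of transcript it was the highest of the members in untreated cells, at 171 CPM, followed by Ppp1r15a at 104 and Psat1 at 97.9.

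The 2 ATF4 relatives with called changes moved in opposite directions. Atf5, a factor of the same family that is also translated preferentially when eIF2 is phosphorylated, had 57.2, 63.5 and 42.2 CPM untreated, 22.4, 19.3 and 16.4 CPM under Dox, and 53.7, 69.6 and 45.8 CPM washed. Part of these reads may belong to its overlapping neighbours Nup62 and Il4i1b, for the strand of the reads is unknown here. The Dox libraries did not overlap the others. It fell by 1.49 ± 0.23 on the log2 scale under Dox (adjusted p = 0.00642) and rose by 1.54 ± 0.23 after the wash (adjusted p = 0.00571).

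Atf3, a stress-induced factor that is mostly a repressor, had 0.734, 3.40 and 1.24 CPM untreated, 14.1, 26.3 and 10.9 CPM under Dox, and 0.552, 3.31 and 1.10 CPM washed. Every Dox library was above every other, and the ratio of Dox to untreated was 19.2, 7.74 and 8.79 in clones 1, 2 and 4. The log2 fold change was 3.21 ± 0.73 (adjusted p = 0.0252, and 0.0012 with the clone block) under Dox and -3.38 ± 0.73 after the wash (adjusted p = 0.0233). Per kilobase, its mean went from 0.905 to 8.65 CPM and back to 0.837.

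Trib3 and Ddit3 were low under Dox and, in clone 1, also after the wash. Trib3, a pseudokinase that restrains ATF4, had 56.3, 54.7 and 14.7 CPM untreated, 5.12, 9.13 and 5.91 CPM under Dox, and 10.3, 51.5 and 17.7 CPM washed. It fell by 2.64 ± 0.68 on the log2 scale (adjusted p = 0.0375), a call that ended with limma voom. Its value after the wash did not pass against Dox (1.98 ± 0.66, adjusted p = 0.096), although the libraries did not overlap, and it passed with the clone block (0.0377) and without washed clone 1 (0.0323).

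Ddit3, which encodes the pro-apoptotic factor CHOP, had 79.2, 79.5 and 52.0 CPM untreated, 21.4, 33.1 and 21.9 CPM under Dox, and 16.9, 90.8 and 55.2 CPM washed. The washed library of clone 1 was the lowest of all 9, at 0.214 of its untreated value, whereas the ratios in clones 2 and 4 were 1.14 and 1.06. The change under Dox was -1.46 ± 0.50 (adjusted p = 0.0952, and 0.0326 with the clone block). After the wash it was 1.09 ± 0.50 (adjusted p = 0.202), and 1.52 without washed clone 1 (adjusted p = 0.0112). Reads of Ddit3 and of its overlapping neighbours Mbd6 and Mars1 may be shared, since the strand setting is not given in the sources used here.

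Nupr1, a small stress-induced chromatin protein, ranged from 0.368 to 5.64 CPM (adjusted p = 0.805 under Dox). Ppp1r15a, the GADD34 subunit that directs the phosphatase against eIF2, had 190, 354 and 182 CPM untreated, 154, 553 and 184 CPM under Dox, and 56.1, 395 and 196 CPM washed. It did not separate by condition (adjusted p = 0.821 and 0.729), and clone 2 was the highest in each condition. Its log2 fold change under Dox was 0.29 and turned to -0.15 without clone 2, and its reads may be shared with the overlapping gene Tulp2.

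**Figure D2:**
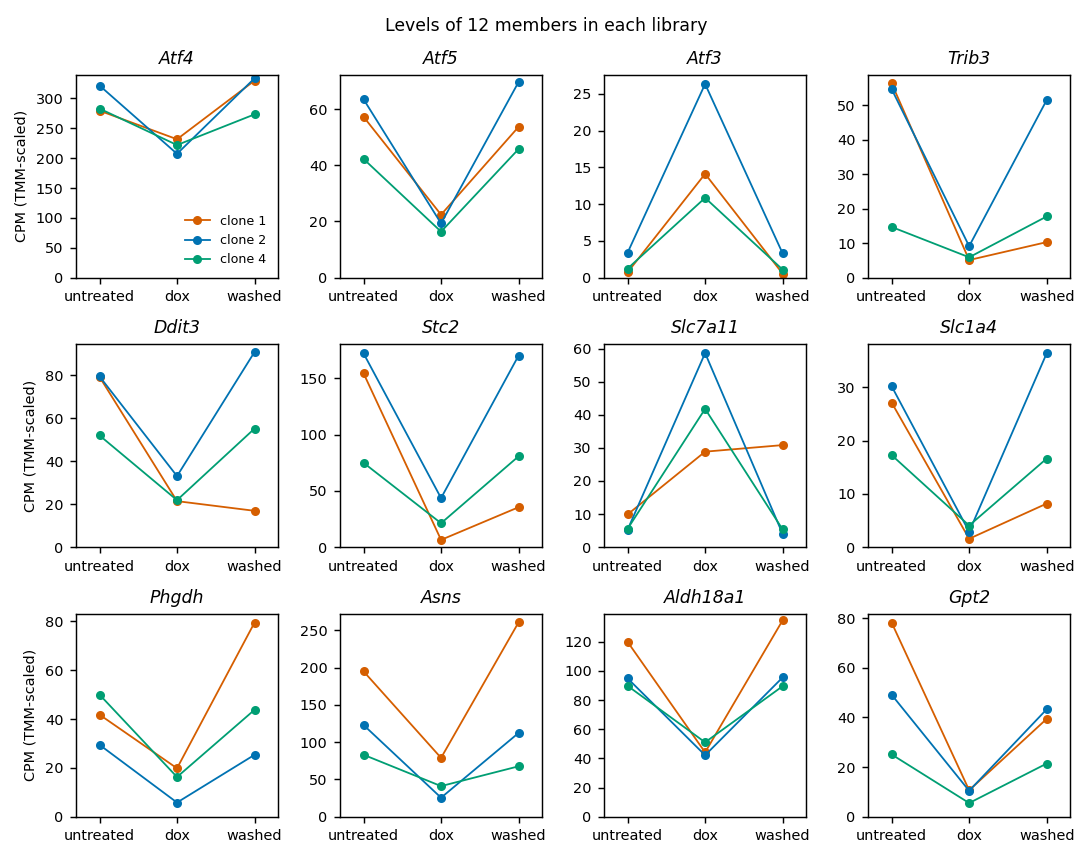
CPM scaled by TMM of 12 members in untreated, Dox and washed libraries, with lines joining the 3 libraries of each clone (clone 1 orange, clone 2 blue, clone 4 green). Atf5, Slc1a4, Aldh18a1 and Gpt2 dip under Dox in all 3 clones, Atf3 and Slc7a11 peak there, and the washed point of clone 1 leaves the other clones in Slc7a11 (30.8 CPM) and Ddit3 (16.9 CPM).

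Among the effectors, Eif4ebp1, the repressor of cap-dependent translation 4E-BP1, had 94.7, 88.8 and 59.0 CPM untreated, 44.2, 33.5 and 40.9 CPM under Dox, and 74.4, 90.6 and 55.8 CPM washed. All Dox libraries were below all others. It fell by 1.03 ± 0.24 on the log2 scale (adjusted p = 0.0289) and rose by 0.90 ± 0.24 after the wash (adjusted p = 0.0492). The call after the wash ended with library-size scaling (0.125) and in several other settings. With library-size scaling the call under Dox ended too.

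Stc2, a secreted stanniocalcin induced by endoplasmic reticulum stress, had 154, 172 and 75.0 CPM untreated, 6.53, 43.7 and 21.3 CPM under Dox, and 35.5, 170 and 80.8 CPM washed. Washed clone 1 lay among the Dox values, while clones 2 and 4 were back near their untreated level (ratios 0.989 and 1.08, against 0.23 in clone 1). The change under Dox was -2.50 ± 0.73 (adjusted p = 0.0582, and 0.0082 with the clone block), and after the wash it was 2.01 ± 0.72 (adjusted p = 0.114, and 0.023 with the block).

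Sesn2, a leucine sensor that inhibits mTORC1, had 63.8, 57.8 and 36.8 CPM untreated, 25.4, 39.7 and 27.8 CPM under Dox, and 34.5, 54.9 and 32.4 CPM washed. It was lower under Dox within each clone, though untreated clone 4 lay below Dox clone 2. Its change was -0.77 ± 0.29 (adjusted p = 0.127, and 0.0282 with the clone block). Chac1, which degrades glutathione, stayed between 0.662 and 3.49 CPM (adjusted p = 0.335).

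The kinases and their substrate changed less. Eif2ak3 had 37.4, 38.2 and 37.6 CPM untreated, 64.2, 50.8 and 46.3 CPM under Dox, and 45.1, 33.8 and 32.1 CPM washed. Each Dox library was above all others, with a log2 fold change of 0.51 ± 0.19 (adjusted p = 0.125, and 0.0444 with the clone block) and -0.54 ± 0.19 after the wash (adjusted p = 0.115, and 0.0332 with the block). Eif2ak4 ranged from 25.2 to 36.1 CPM and Eif2s1, the phosphorylated subunit of eIF2, from 52.9 to 131 CPM, and neither passed in either comparison, with or without the block.

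Of the 8 transporters, 1 rose and 1 fell under Dox, against 6.57% and 4.35% of all genes, so the counts are near the background. Slc7a11, the cystine-glutamate exchanger xCT, had 9.91, 5.29 and 5.56 CPM untreated, 28.9, 58.6 and 41.8 CPM under Dox, and 30.8, 4.04 and 5.38 CPM washed. The washed library of clone 1 was at 3.11 times its untreated value, inside the Dox range, while clones 2 and 4 were at 0.765 and 0.968. It rose by 2.65 ± 0.73 on the log2 scale under Dox (adjusted p = 0.0485). The change after the wash was -1.67 ± 0.69 (adjusted p = 0.167, and 0.0497 with the clone block), and it was -3.18 (adjusted p = 0.00253) without washed clone 1. The call under Dox ended with RLE scaling and when mitochondrial genes and unnamed entries were left out.

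Slc1a4, a carrier of serine, alanine and other neutral amino acids, had 27.1, 30.2 and 17.3 CPM untreated, 1.59, 2.91 and 4.07 CPM under Dox, and 8.19, 36.4 and 16.6 CPM washed. No Dox library reached the lowest of the others. It fell by 3.12 ± 0.58 on the log2 scale (adjusted p = 0.0116) and rose by 2.83 ± 0.57 after the wash (adjusted p = 0.0183). Its promoter and that of Slc7a11 both hold the composite element printed above, and the transcripts moved in opposite directions.

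Slc1a5, the glutamine carrier ASCT2, had 201, 153 and 206 CPM untreated, 105, 100 and 141 CPM under Dox, and 137, 143 and 212 CPM washed. The untreated and Dox libraries did not overlap, and the log2 fold change was -0.69 ± 0.23 (adjusted p = 0.0901, and 0.0138 with the clone block). After the wash it was 0.51 ± 0.23 (adjusted p = 0.203, and 0.0476 with the block).

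Slc38a2, the stress-responsive carrier SNAT2, had 197, 166 and 211 CPM untreated, 249, 248 and 283 CPM under Dox, and 230, 153 and 218 CPM washed. The Dox libraries were the 3 highest, yet the change of 0.44 ± 0.20 did not pass in the edgeR fits of all 9 libraries (adjusted p = 0.185, and 0.061 with the clone block). Slc7a5 and Slc3a2, the 2 chains of the large neutral amino acid exchanger, ranged from 60.9 to 246 and from 226 to 302 CPM. The arginine carriers Slc7a1 and Slc7a3 ranged from 59.5 to 322 and from 0.353 to 2.91 CPM. None of these 4 passed in either comparison, with or without the block.

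None of the 5 serine and one-carbon genes passed in the edgeR fit of all 9 libraries without the clone block (2 at an unadjusted p below 0.05 under Dox, 2 in DESeq2 and 0 in limma voom), and 2 fell under Dox with it. Of all 12004 genes, 3262 passed unadjusted under Dox, 2138 in DESeq2 and 1138 in limma voom, and 11.7% fell with the block. Phgdh and Psat1 also passed without the block in other edgeR settings: under Dox in the 2 groups alone (adjusted p = 0.0422 and 0.0251) and without washed clone 1 (0.0375 and 0.0163), and after the wash with no filter (0.0457 and 0.0484) or a filter of 5 CPM (0.0499 and 0.0498). All 5 had their highest value in washed clone 1. Phgdh, the first enzyme of serine synthesis, had 41.8, 29.5 and 50.0 CPM untreated, 19.9, 5.82 and 16.3 CPM under Dox, and 79.5, 25.4 and 43.8 CPM washed. The Dox libraries did not overlap the others. The change under Dox was -1.52 ± 0.50 (adjusted p = 0.0863, and 0.00462 with the clone block), and after the wash 1.82 ± 0.51 (adjusted p = 0.054, and 0.00344 with the block).

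Psat1, the aminotransferase that follows it, had 330, 208 and 193 CPM untreated, 116, 59.7 and 117 CPM under Dox, and 473, 199 and 178 CPM washed. Here too the Dox libraries were the 3 lowest. Its change under Dox was -1.32 ± 0.43 (adjusted p = 0.0809, and 0.0121 with the clone block), and after the wash 1.54 ± 0.43 (adjusted p = 0.0546, and 0.00895 with the block).

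Shmt2, the mitochondrial enzyme that passes a carbon unit from serine to folate, had 226, 216 and 207 CPM untreated, 185, 97.4 and 151 CPM under Dox, and 349, 221 and 198 CPM washed. The Dox libraries were again lowest, with a change of -0.58 ± 0.28 (adjusted p = 0.216) and, after the wash, 0.82 ± 0.28 (adjusted p = 0.099, and 0.0255 with the clone block). Psph, the last enzyme of serine synthesis, ranged from 27.7 to 77.8 CPM, and Mthfd2, a mitochondrial folate enzyme, from 34.4 to 142 CPM. Neither passed in either comparison, with or without the block.

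Of the 6 genes of other amino acid synthesis, 4 fell under Dox and rose after the wash (66.7%), against 4.35% and 3.64% of all genes. Aldh18a1, which starts proline synthesis from glutamate, had 120, 95.0 and 89.8 CPM untreated, 44.2, 42.2 and 51.1 CPM under Dox, and 135, 95.6 and 89.6 CPM washed. No library of the Dox group overlapped another group. It fell by 1.15 ± 0.21 on the log2 scale (adjusted p = 0.0107) and rose by 1.22 ± 0.21 (adjusted p = 0.00856). The call under Dox ended with library-size scaling.

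Pycr1, the mitochondrial reductase that completes proline, had 16.1, 10.5 and 6.67 CPM untreated, 2.38, 2.12 and 2.42 CPM under Dox, and 6.26, 7.72 and 6.24 CPM washed. The Dox values were close together and below all others. It fell by 2.25 ± 0.36 on the log2 scale (adjusted p = 0.00691) and rose by 1.54 ± 0.36 after the wash (adjusted p = 0.0302).

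Cth, the cystathionine lyase that makes cysteine from methionine-derived sulphur, had 47, 48 and 14 reads in untreated clones 1, 2 and 4, 0, 0 and 1 under Dox, and 38, 29 and 14 after the wash. Only Dox clone 4 held a read under Dox. Summed over the group and scaled by library size, the untreated level was 148 times the Dox level, with an exact 95% interval of 26.0 to 5906 that covers counting error only. The washed level was 87.0 times the Dox level, with an interval of 15.2 to 3478. The fall and the rise passed the edgeR test (adjusted p = 0.00464 and 0.00829).

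Gpt2, a mitochondrial alanine aminotransferase, had 78.1, 49.1 and 25.1 CPM untreated, 10.7, 10.5 and 5.52 CPM under Dox, and 39.4, 43.3 and 21.4 CPM washed. The Dox libraries were below all others, and within each condition clone 4 was the lowest. It fell by 2.51 ± 0.46 on the log2 scale (adjusted p = 0.0114) and rose by 1.97 ± 0.45 after the wash (adjusted p = 0.0292).

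Asns, asparagine synthetase, had 195, 123 and 83.1 CPM untreated, 79.0, 25.5 and 41.1 CPM under Dox, and 261, 112 and 67.7 CPM washed. Dox and untreated libraries did not overlap, but washed clone 4 lay below Dox clone 1. The change under Dox was -1.46 ± 0.56 (adjusted p = 0.132, and 0.00766 with the clone block), and after the wash 1.60 ± 0.57 (adjusted p = 0.112, and 0.00785 with the block). Got1, the cytosolic aspartate aminotransferase, ranged from 49.0 to 92.5 CPM without a call (adjusted p = 0.865 and 0.978).

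Washed libraries were also compared with the Dox libraries, which both comparisons share, so that the results are not independent. After the wash 7 of 33 members rose and 1, Atf3, fell, against 3.64% and 6.02% of all genes (9.66% in either direction). The 7 were the genes that fell under Dox other than Trib3, and neither Trib3 (adjusted p = 0.096) nor Slc7a11 (0.167) passed. With the clone block 15 members rose and 3 fell, against 10.4% and 12.4% of all genes (22.9% in either direction). The median log2 fold change was 0.51 over the members and 0.04 over all genes. Without clones 1, 2 and 4 in turn, 5, 1 and 0 of the 8 calls remained, and in the 2 groups alone 4 did. Calls over all genes went from 1160 to 1069, 70 and 4 in turn, and to 324 in the 2 groups alone. Slc7a11 also passed without clone 1.

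Counted by groups that do not overlap, 16 members were lower and 4 higher in all Dox than in all untreated libraries, against 18.5% and 20.4% of all genes. In washed against Dox libraries 12 were higher and 3 lower, against 11.8% and 14.5% of all genes.

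Washed and untreated libraries were then compared to see whether the levels came back. With edgeR, 0 of 12004 genes passed (0%), with or without the clone block, and so did 0 members; at an unadjusted p below 0.05 there were 38 genes and 0 members. DESeq2 and limma voom also called 0. The members' median log2 fold change was 0.01, against 0.02 over all genes. Slc7a3 was the only member whose washed libraries did not overlap the untreated ones, being lower, against 1.05% of all genes; 0 members were higher in this way, against 1.31%.

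The clones differed in this respect, in values that rest on 1 library each and have no test. In clone 1, 11 of 33 members were at least 2-fold from their untreated level after the wash (33.3%), against 19.8% of all genes. Of the members, 9 were lower (27.3%) and 2 higher (6.06%) in this way, against 14% and 5.81% of all genes. In clone 2, 1 member was at least 2-fold away in either direction (3.03%, against 1.87%), and in clone 4 there were 2 (6.06%, against 1.58%). The members' log2 differences ran from -2.77 to 1.62 in clone 1, from -0.73 to 1.47 in clone 2 and from -1.19 to 1.35 in clone 4. Within clone 1, Trib3 stayed at 0.183 of its untreated level and Ppp1r15a at 0.295, whereas Psph was at 2.42 times its own and Slc7a11 at 3.11 times.

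**Figure D3:**
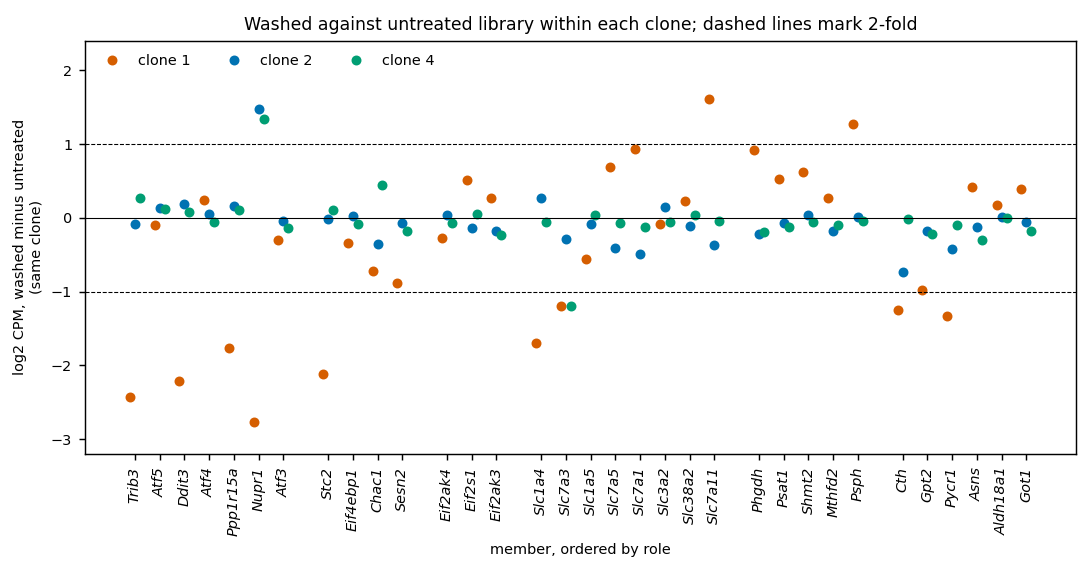
Log2 CPM of each tested member in the washed library minus that in the untreated library of the same clone, 1 column of points per clone, with dashed lines at 2-fold. In clone 1, 11 of 33 members lie outside the lines, against 1 in clone 2 and 2 in clone 4; each point rests on 2 libraries.

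A difference between the clones over all conditions passed for 0 of 12004 genes in edgeR (0%; 4501 genes and 17 members at an unadjusted p below 0.05), with a smallest adjusted p of 0.0533 among the members. A difference between clones in their response to Dox also passed for 0 genes (407 genes and 5 members unadjusted). That test pooled the untreated and washed libraries of a clone as its libraries off Dox, so its spread is the difference between these. With 1 of them missing in clone 1, the spread comes from clones 2 and 4 alone. Its counts then cannot settle whether the responses differ. The counts of both tests changed with 1 library of clone 1, in fits of 12309 genes without the untreated one and 12261 without the washed one. Without the untreated one, 3666 genes and 16 members differed between clones and 4171 genes and 16 members in the response; without the washed one, 1788 genes and 8 members, and 2503 genes and 16 members. Between clones 2 and 1 taken as a pair, Ppp1r15a (log2 difference 1.78) and Atf3 (1.58) were higher in clone 2, and Phgdh (-1.30), Slc7a1 (-1.38), Asns (-1.13), Mthfd2 (-1.06), Psat1 (-0.96) and Eif2s1 (-0.74) were lower, among 18.5% of all genes called. Of all libraries, washed clone 1 held the lowest value of Ppp1r15a and of Atf3 and the highest of each of the others. The pair was not tested without that library, which may decide these calls. In the same edgeR fit clone 4 gave 0 calls against clone 1 (2372 genes and 9 members at an unadjusted p below 0.05) and 0 against clone 2 (2776 genes and 11 members).

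Other genes of the same pathways, listed by function, were taken from lists by function, with lower and higher calls under Dox given for each, beside 4.35% and 6.57% of all genes. Counts of 1 in lists of this size are near those shares and say nothing particular of a list. At an unadjusted p below 0.05, 3262 of 12004 genes passed under Dox in edgeR, with 2138 called in DESeq2 and 1138 in limma voom. Of 15 further genes of eIF2 signalling, 1 fell: Eif2a, an alternative initiation factor, had 120, 133 and 91.4 CPM untreated and 65.6, 45.8 and 54.1 CPM under Dox (log2 fold change -1.06, adjusted p = 0.0237). Of 18 chaperone and XBP1 genes of the endoplasmic reticulum, 2 rose and 0 fell. Edem1, which sends misfolded glycoproteins to degradation, had 531, 461 and 422 CPM untreated and 1264, 1116 and 1026 CPM under Dox (1.27, adjusted p = 0.0175). Dnajb9, a cochaperone and XBP1 target, had 18.7, 30.4 and 22.1 CPM untreated and 52.4, 58.9 and 42.1 CPM under Dox (1.10, adjusted p = 0.0265). Both fell again after the wash. Of 11 other partners of ATF4 and C/EBP factors, 0 passed in edgeR (1 at an unadjusted p below 0.05, 1 in DESeq2 and 0 in limma voom). Of 11 antioxidant genes of NRF2, a factor that also drives Slc7a11, 0 passed in edgeR (1 unadjusted, 1 in DESeq2 and 1 in limma voom).

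Of 17 nutrient-sensing genes upstream of mTORC1, 1 rose and 1 fell under Dox (5.88% each). Fnip1 had 35.4, 52.6 and 38.0 CPM untreated, 113, 107 and 112 CPM under Dox, and 29.0, 47.7 and 48.2 CPM washed (1.40, adjusted p = 0.00811 under Dox). Flcn, which encodes its partner folliculin, had 51.0, 57.4 and 55.7 CPM untreated, 35.9, 35.7 and 32.5 CPM under Dox, and 47.5, 58.1 and 57.0 CPM washed (-0.66, adjusted p = 0.027). Neither gene's Dox libraries overlapped the others.

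Of 15 other amino acid transporters, Slc43a2, a carrier of large neutral amino acids, rose from 30.3, 25.8 and 35.6 to 68.9, 76.2 and 75.2 CPM (1.26, adjusted p = 0.0144). Slc38a7, a lysosomal glutamine carrier, fell (-1.35, adjusted p = 0.0478). Of 12 other one-carbon and glycine genes, Mthfd1l, a mitochondrial formate synthase, fell from 191, 180 and 101 to 60.3, 56.4 and 78.2 CPM (-1.28, adjusted p = 0.0371). Of 16 other genes of amino acid metabolism, 2 fell. Glul, glutamine synthetase, went from 282, 450 and 472 to 53.8, 131 and 99.6 CPM (-2.08, adjusted p = 0.0461). Odc1, which starts polyamine synthesis from ornithine, went from 70.3, 90.7 and 87.2 to 42.9, 47.2 and 55.6 CPM (-0.77, adjusted p = 0.0363).

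Hypoxia and glycolysis genes moved with washed clone 1. The 18 listed genes summed to 13981, 16861 and 6962 CPM in untreated clones 1, 2 and 4, to 2765, 8639 and 3540 CPM under Dox, and to 3242, 19236 and 6673 CPM after the wash. In washed clone 1 the sum stood near that of Dox clone 1, and Stc2, Ddit3 and Slc7a11 there were at 0.23, 0.214 and 3.11 times their untreated values. Other members did not stay near Dox: Asns, Psat1, Phgdh and Aldh18a1 had their highest value of all libraries in washed clone 1. Of the 33 tested members, 9 were at least 2-fold lower there than untreated and 2 at least 2-fold higher, against 14% and 5.81% of all genes. The share of counts on mitochondrial genes was 2.66% in Dox clone 1 and 3.28% in washed clone 1, and 12.7% in untreated clone 1. Untreated, under Dox and washed it was 16.8%, 18.6% and 15.8% in clone 2, and 20.4%, 7.52% and 22.0% in clone 4. Of the 17 tested genes of this list, 0 passed under Dox in edgeR without the clone block (5 at an unadjusted p below 0.05, 4 in DESeq2 and 0 in limma voom), and 10 fell with it. Of all 12004 genes, 3262 passed unadjusted, 2138 in DESeq2 and 1138 in limma voom, and 11.7% fell with the block. The part of these differences in the members' values was not tested.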

How the data were processed

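The deposited files hold raw read counts per Entrez gene, 1 file per library, and the length of each gene model in bases, a further value of the authors, per the file headers. Counting was done with featureCounts on mm10, and limma 3.22.0, edgeR 3.8.2 and CASAVA 1.8.2 were also used, per the submitters' processing notes. Neither an aligner nor a strand setting is named there, so reads of overlapping genes cannot be assigned to 1 strand. Symbols, starts and promoters came from RefSeq tables of GRCm38, in which 25275 of 27179 entries matched and 29 of the 34 members had a promoter entry.

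After filterByExpr, 12004 genes remained, with TMM scaling. All 9 libraries, of 7408118 to 9803258 counts, entered 1 quasi-likelihood fit with a mean per group (edgeR 4.0.16, R 4.3.3), and Benjamini-Hochberg adjustment ran over all genes at 0.05. SE was taken as the size of the log2 fold change over the root of its F statistic. Log2 CPM used a prior count of 2. Libraries of 1 clone are 1 cell line and thus paired, but the fit with a mean per group had no clone term. Its calls, SEs and adjusted p values leave the pairing out, and only the clone block uses it. Deviations from group means correlated at 0.29 to 0.68 in the 9 same-clone pairs and at -0.69 to 0.32 between clones. The closest libraries, untreated and washed clone 4, differed beyond sampling noise (chi-square per degree of freedom 3.58).

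Per-sample values are given for Spi1, Atf4 and every member passing 0.05 with or without the clone block, Slc38a2 and Ppp1r15a having been added after their values were seen. From each other list up to 4 genes that passed without the block were taken. The members and lists were chosen with earlier results of these data known. Alternatives were scaling by RLE or by library size alone, no filter or 5 CPM in 3 libraries, DESeq2 1.42.0, limma voom (3.58.1), the clone block, leaving out mitochondrial genes and unnamed entries, the 2 groups alone, and leaving out clones or a library of clone 1. Fits joining the block with a left-out clone or library, and tests of clone pairs, were chosen after seeing the data. The fit without a clone term was run on simulated counts that held no clone differences, for both Dox comparisons. The clone block, the tests between clones and the motif counts were not tested in this way.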

Additional observations from a re-analysis of the deposited data

How the results depend on the processing

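The 20 members that passed with or without the clone block, Atf4 among them, kept the direction of both Dox comparisons in the 19 alternatives, except that Cth was not tested with the filter of 5 CPM. Of the 13 other tested members, 11 changed sign in some setting, Ppp1r15a among them, none of them when called. The comparison of washed with untreated libraries gave 0 genes in each. In what follows, lower and higher refer to Dox against untreated, and fallen and risen to washed against Dox. The cause of each change in a count was not tested, except that fits without a clone or library hold fewer samples.

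Percentages in parentheses are the shares of all tested genes called in the same direction. With RLE factors (6.31%), and without mitochondrial genes and unnamed entries (6.54%), 1 member was higher. Library size alone left 648 genes in washed against Dox. DESeq2 called 2138 genes with 15 members lower (8.11%), and 1967 genes with 14 risen (7.45%). The 2 groups alone gave 2026 genes with 13 members lower (7.35%), and 324 genes with 4 risen (0.799%) and 0 fallen (1.95%). The fit paired by the clone block called 2976 genes with 15 members lower (11.7%) and 3 higher (13.0%). After the wash it called 2744 genes with 15 risen (10.4%) and 3 fallen (12.4%). Leaving out a clone, or the untreated or washed library of clone 1, gave 0 to 2258 genes. Of the members, 0 to 12 were lower (0% to 8.09%) and 0 to 2 higher (0% to 10.3%). After the wash these fits gave 4 to 1814 genes with 0 to 9 members risen (0.00829% to 6.53%) and 0 to 3 fallen (0.0249% to 8.26%).

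With the block and without clone 1, 4117 genes were called with 17 members lower (16.2%) and 3 higher (17.7%). After the wash 4325 genes were called, with 16 members risen (17.0%) and 4 fallen (18.6%). Without clone 2 these were 623 genes, 4 lower (1.98%), 1 higher (3.18%), and 421 genes, 3 risen (1.2%), 1 fallen (2.29%). Without clone 4 they were 360 genes, 10 lower (1.17%), 1 higher (1.81%), and 320 genes, 8 risen (0.994%), 1 fallen (1.66%). Without untreated clone 1, the block gave 2414 genes, 14 lower (8.98%), 2 higher (10.6%), and 3561 genes, 15 risen (13.8%), 3 fallen (15.1%). Without washed clone 1 it gave 4732 genes, 17 lower (18.5%), 4 higher (20.1%), and 3820 genes, 16 risen (14.8%), 4 fallen (16.4%).

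Clone differences were called for 74 of 12004 genes with RLE factors and 106 of 11759 without mitochondrial genes and unnamed entries. They were called for 1140 of 12004 with library size alone (7 of 33 members) and 1664 of 17582 with no filter (9 of 34 members). Without untreated or washed clone 1 they numbered 3666 (16 members) and 1788 (8 members), and differences in response 4171 and 2503 (16 members in each). Those fits tested 12309 genes without untreated clone 1 and 12261 without washed clone 1. Depth limits Cth, Atf3, Slc1a4, Pycr1, Chac1, Nupr1 and Slc7a3, whose Dox or untreated levels rest on few reads.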
